A study of Mus musculus with 6 samples.

Results

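The machinery that carries new proteins across the membrane of the endoplasmic reticulum (ER) and attaches their N-linked sugars was followed in mouse livers that lacked AEG-1 in hepatocytes. The members were 36 genes chosen by function: the signal recognition particle and its receptor, the Sec61 channel, the TRAP and TRAM proteins, signal peptidase, oligosaccharyltransferase and 2 rough ER membrane proteins. All 36 had a row among the 46983 genes of the count table, and all 36 passed the filter on low counts that left 16441 genes for testing. The choice used no threshold on the values. Both groups were untreated 12-week-old mice on a C57BL/6 background, fed chow. The knockout group is described as AEG-1DHEP, a hepatocyte-specific deletion of AEG-1, and the control group as AEG-1fl/fl, which carries the conditional allele undeleted and whose titles read WT. The driver of the deletion is not given in the sources used here. RNA came from whole liver, so cells other than hepatocytes kept their AEG-1 gene and contributed RNA to every library.

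AEG-1, encoded by Mtdh, is a membrane protein of the ER that binds RNA. Secreted proteins begin synthesis on cytosolic ribosomes. The signal recognition particle binds the emerging signal sequence and docks on its receptor in the ER membrane, and the chain then passes through the Sec61 channel. Signal peptidase removes the signal sequence, and oligosaccharyltransferase moves a preassembled sugar tree from a lipid carrier onto asparagine residues. Hepatocytes depend on this route because they make most plasma proteins, many of which are glycosylated.

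The column of control replicate 2 repeated that of control replicate 1 in all 46983 rows. The difference between them was thus smaller than sampling noise, and both count as 1 sample, so 3 knockout libraries were compared with control replicates 1 and 3. Library totals lay between 29557477 and 33685670 counts. The markers of hepatocytes were abundant in every library, with 84668 to 117610 summed CPM (counts scaled to the library's total and its TMM factor) over 9 genes. For Mtdh the knockout libraries held 2.90, 2.23 and 2.37 CPM, and the controls 48.0 and 54.6 CPM. The labels were thus met in every library, with a log2 fold change of -4.36 (SE 0.15) and an edgeR adjusted p of 0.000564.

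None of the 36 members passed the test between knockout and control livers. By edgeR's quasi-likelihood test over all genes, 0 members were called higher and 0 lower, where 1 gene of 16441 (0.00608%), Mtdh itself, was called. At an unadjusted p under 0.05 there were 2 members, Srprb and Ckap4, where 3.43% of all genes had such a p (1.63% higher and 1.80% lower). DESeq2 had 0 members and limma-voom 2 members at that level, where 498 and 541 of the 16441 genes had such a p. Neither called a member after adjustment. The count of 2 became 0 in edgeR without any 1 of the 3 knockout libraries and with a replicate block. It was 1 without control replicate 1 (Tram2, neither Srprb nor Ckap4) and 1 without control replicate 3 (Srprb). The share of all genes at this level in these refits is not given here. The median log2 fold change of the members was -0.02, beside 0.01 over all genes tested. Of the members, 13 had a positive and 23 a negative fold change (63.9% negative, against 47.9% of all genes), and without control replicate 1 the negative ones numbered 15. The quartiles of all genes lay at -0.13 and 0.13, and 29 members lay between them.

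The width of the intervals limits what could have been missed. Intervals at the 95% level stayed within 0.5 of 0, on the log2 scale, for 26 of 36 members (72.2%), against 36.4% of all genes and 48.8% of the genes at least as abundant as the lowest member. All 36 stayed within 1 of 0, as did 74.8% of all genes, so a change of 2-fold or more was outside the interval of each member. The median half-width was 0.31 for the members and 0.46 for all genes. Counts per member and library ran from 53 for Ckap4 to 14359 for Rrbp1. Any difference reported here is one between whole livers, in which fewer cells of a type and less RNA per cell cannot be told apart.

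**Figure D1:**
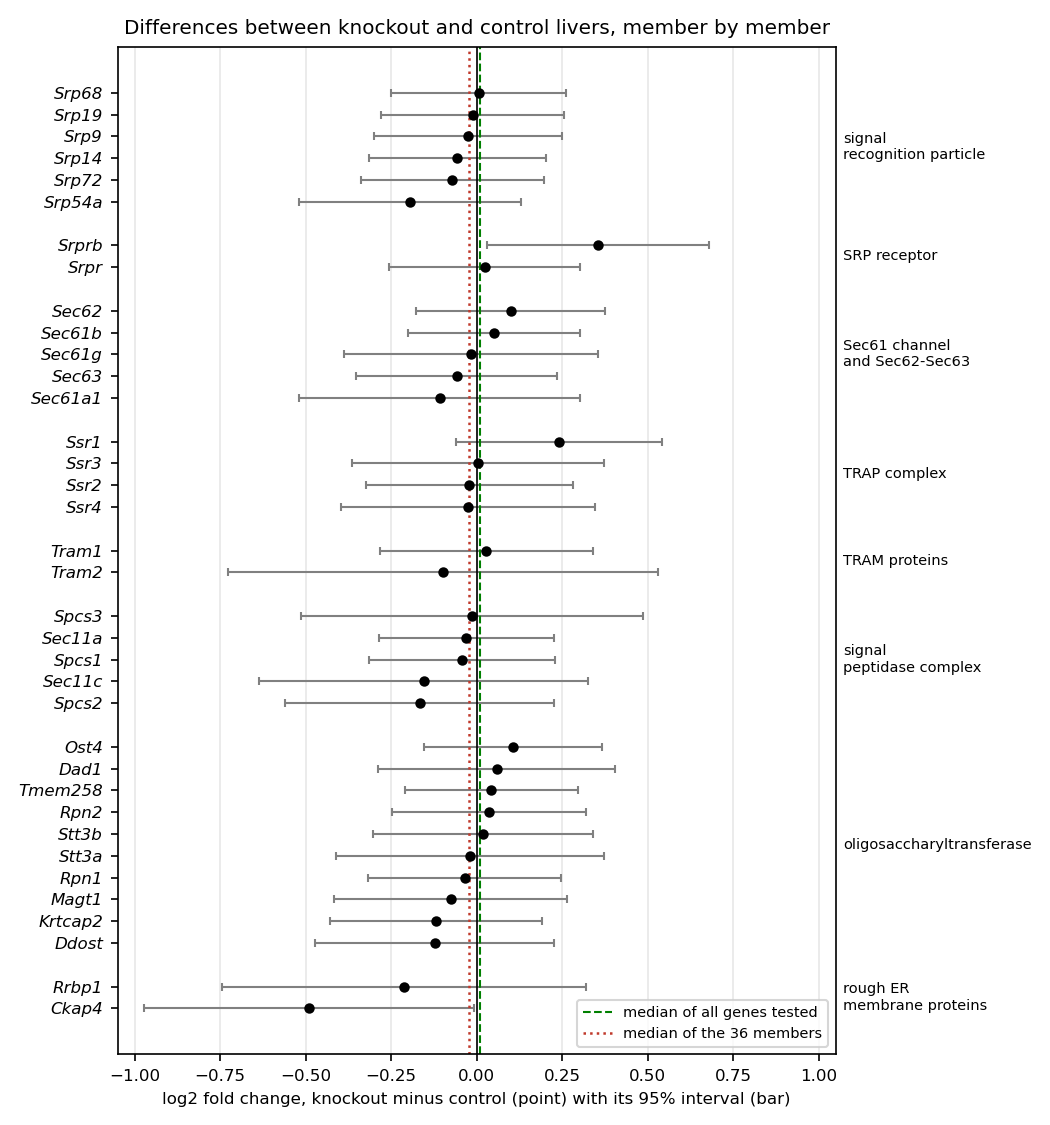
Each point is a member's log2 fold change (x axis, knockout minus control) and each bar its 95% interval from the edgeR fit, grouped by complex on the y axis. Most points lie close to 0, and only the intervals of Srprb (0.03 to 0.68) and Ckap4 (-0.97 to -0.01) leave it out.

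The groups did not overlap in CPM for 6 of 36 members (16.7%), where 16.9% of all genes did not overlap. The share was thus at the background. The 4 with higher knockout values were Srprb, Ssr1, Sec62 and Ost4 (8.16% of all genes), and the 2 with lower ones Srp54a and Ckap4 (8.72%). They come from 6 of the 8 complexes and groups described here.

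No protein of the signal recognition particle passed the test. This particle is made of a small RNA and 6 proteins, all of them members. Log2 fold changes ran from -0.19 to 0.01 with a median of -0.04. Srp54a, the GTPase subunit that binds the signal sequence, had 76.4, 69.2 and 59.9 CPM in knockout and 80.1 and 76.7 CPM in control libraries. All knockout values lay below the controls, though the highest came close to them, and the log2 fold change was -0.19 (SE 0.14). Srp72, which with Srp68 forms the large scaffold dimer, had 118, 112 and 111 CPM in knockout and 121 and 117 CPM in control libraries. Srp14, a subunit of the domain that slows elongation, had 28.3, 30.0 and 29.9 CPM against 32.6 and 28.6 CPM. Both overlapped between the groups, and so did Srp9, Srp19 and Srp68.

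The Srp54a values need care because the gene has near-identical copies beside it on chromosome 12. The count table's model of Srp54a (55089202 to 55112891 on GRCm38) spans 1515 exon bases. Aligned with GENCODE transcripts, those 1515 bases matched Srp54b without a mismatch and Srp54c with 6 mismatches, an identity of 99.6%. Srp54b is not analysed here. For Srp54c the log2 fold change was -0.33 (SE 0.16), the same sign as Srp54a. The sum of Srp54a and Srp54c was 74.6 ± 8.88 CPM in knockout (SD, n = 3) and 86.0 ± 2.16 CPM in control livers (SD, n = 2), and the groups also lay apart in the sum, from 65.5 to 83.3 against 84.5 to 87.6 CPM. How reads with several matches were treated is not given in the sources used here, so the split between the copies is uncertain.

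The receptor pair differed in spread and in fold change, a difference between subunits that was not tested. Srpr, the peripheral GTPase subunit, had 194, 203 and 200 CPM in knockout and 193 and 198 CPM in control libraries. This was the narrowest spread over libraries of any member. Srprb, the membrane anchor of the receptor, had 12.4, 13.2 and 13.9 CPM in knockout and 9.48 and 11.1 CPM in control libraries. Every knockout library lay above both controls, and the mean was 13.2 ± 0.735 CPM (SD, n = 3) against 10.3 ± 1.18 CPM (SD, n = 2). The log2 fold change of 0.35 (SE 0.14) had an unadjusted edgeR p of 0.036 and an adjusted p of 1.00. It lay between 0.24 and 0.48 with any 1 library left out.

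Srprb lies on chromosome 9 (103188032 to 103202137, minus strand). Of its 4287 exon bases, 888 (20.7%) are shared with Gm20425, a same-strand gene model that runs from 103190208 to 103230307 across Srprb and the transferrin gene Trf. The table gave Gm20425 0 counts in the 3 knockout libraries and in control replicate 3, and 1 in control replicate 1. How reads in the shared exons were assigned is not given in the sources used here, so the level of Srprb is uncertain.

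None of the 5 channel members passed the test. Sec61a1, the pore-forming subunit, had 122, 144 and 105 CPM in knockout and 145 and 121 CPM in control libraries, a log2 fold change of -0.11 (SE 0.17). Its knockout libraries differed from each other by more than the groups did. Sec61b, a small tail-anchored subunit, had 20.8, 19.5 and 21.3 CPM against 19.7 and 19.9 CPM, and the third subunit, Sec61g, had a value of -0.02 (SE 0.16) for its log2 fold change. Sec62 and Sec63 help proteins to enter after their synthesis and recruit the lumenal chaperone BiP. Sec62 had 153, 145 and 153 CPM in knockout and 137 and 144 CPM in control libraries, which lay apart by little, and its log2 fold change was 0.10 (SE 0.12). That of Sec63 was -0.06 (SE 0.12).

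In the TRAP complex, which sits beside Sec61 and aids the entry of proteins with weak signal sequences, Ssr1 stood apart from its partners. Ssr1, the alpha subunit, had 90.6, 104 and 108 CPM in knockout and 86.8 and 83.8 CPM in control libraries. All knockout libraries were higher, with a log2 fold change of 0.24 (SE 0.13) and an unadjusted edgeR p of 0.101. The partners Ssr2, Ssr3 and Ssr4 had log2 fold changes of -0.02 (SE 0.13), 0.00 (SE 0.15) and -0.03 (SE 0.16). Ssr2, the beta subunit, had 54.1, 59.9 and 53.0 CPM against 61.3 and 51.8 CPM, with the highest and the lowest value both in the control group. Ssr3, the gamma subunit, had 287, 292 and 240 CPM in knockout and 250 and 295 CPM in control libraries, and both groups covered the same range. Ssr4 had 71.5, 68.8 and 91.9 CPM against 78.7 and 78.8 CPM, with the highest and the lowest value both in the knockout group. The difference between Ssr1 and its partners was not tested.

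TRAM proteins are membrane neighbours of the channel that contact signal sequences. Tram1 had 122, 136 and 121 CPM in knockout and 133 and 115 CPM in control libraries. Tram2, a paralogue linked to collagen synthesis, had 14.7, 19.3 and 17.0 CPM in knockout and 12.8 and 23.6 CPM in control libraries. The control libraries bracketed the knockout ones, and 1.85-fold was the widest spread of any member. Without control replicate 1 the log2 fold change of Tram2 was -0.48, and without control replicate 3 it was 0.41.

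All 5 signal peptidase members had a negative fold change, from -0.17 to -0.01, and none had groups that lay apart. Spcs2, an accessory subunit, had 40.6, 50.6 and 36.7 CPM in knockout and 51.8 and 43.9 CPM in control libraries, a log2 fold change of -0.17 (SE 0.16). Sec11a and Sec11c are alternative catalytic subunits. Sec11c had 21.0, 26.4 and 26.7 CPM in knockout and 21.9 and 33.1 CPM in control libraries, and for Sec11a the log2 fold change was -0.03 (SE 0.11). Spcs1, a small accessory subunit, had 49.9, 44.0 and 50.6 CPM against 50.7 and 48.5 CPM. Spcs3, which the complex needs for activity, had 95.3, 89.5 and 59.4 CPM against 81.9 and 82.4 CPM, and is given because of this spread among the knockout libraries, seen before it was chosen.

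No member of oligosaccharyltransferase passed the test. Each of its 10 members had a 95% interval within 0.5 of 0, and the log2 fold changes ran from -0.12 to 0.11 around a median of 0.00. Stt3a and Stt3b are the catalytic subunits, of which STT3A acts at the channel on chains as they enter and STT3B on sites that were skipped. Their log2 fold changes were -0.02 (SE 0.16) and 0.02 (SE 0.13). Per length, the ratio of Stt3a to Stt3b was 0.68 ± 0.049 in knockout (SD, n = 3) and 0.70 ± 0.048 in control livers (SD, n = 2). Magt1, the oxidoreductase subunit of the STT3B form, stood at a log2 fold change of -0.08 (SE 0.14), and Krtcap2, a subunit of the STT3A form, at -0.12 (SE 0.13). The Krtcap2 levels were 23.2, 24.4 and 27.2 CPM in knockout and 29.5 and 24.7 CPM in control libraries, which overlapped.

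Among the shared subunits of the enzyme, Ddost had 56.0, 69.2 and 56.9 CPM in knockout and 71.6 and 60.5 CPM in control libraries, a log2 fold change of -0.12 (SE 0.15). Rpn1 and Rpn2, the ribophorins, had log2 fold changes of -0.04 (SE 0.12) and 0.04 (SE 0.12). The small subunits Dad1 and Tmem258 had 0.06 (SE 0.14) and 0.04 (SE 0.11). Ost4, the smallest subunit, had 18.9, 17.5 and 18.2 CPM in knockout and 16.4 and 17.5 CPM in control libraries, so the groups touched at 3 digits. Of its 1272 exon bases, 677 (53.2%) are also covered by Agbl5 on the opposite strand. Other genes covered over 10% of the exon bases of 7 members, Srprb and Ost4 among them. The rest were Spcs1 (17.9%), Krtcap2 (15.7%), Srp9 (14.1%), Ssr2 (12.8%) and Sec62 (11.7%), each on the opposite strand. The strand setting of the counting is not given in the sources used here.

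The 2 rough ER membrane proteins had negative fold changes. Rrbp1, the ribosome-binding protein p180, had 313, 375 and 278 CPM in knockout and 451 and 295 CPM in control libraries. One control library lay above and the other within the knockout range, and the log2 fold change was -0.21 (SE 0.22). Without control replicate 1 it was 0.12. Ckap4, also known as CLIMP-63, which shapes ER sheets, had 1.79, 1.63 and 1.66 CPM in knockout and 2.39 and 2.37 CPM in control libraries. These rest on 55, 54 and 53 counts against 76 and 70. The groups lay apart, with a log2 fold change of -0.49 (SE 0.20), an unadjusted edgeR p of 0.047 and an adjusted p of 1.00, and the value stayed between -0.53 and -0.46 with any 1 library left out.

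Markers of sinusoidal endothelial cells mostly had the sign of Ckap4. Of 12 markers, 11 (91.7%) had negative fold changes, beside 47.9% of all genes, and for 5 (41.7%) the groups lay apart, beside 16.9% of all genes. None passed the edgeR test, while 2 had an unadjusted p under 0.05 by edgeR and 3 by DESeq2 and limma-voom each. Over all 16441 genes tested there were 564, 498 and 541 by these methods. The summed level of the endothelial markers was 303 to 414 CPM in knockout and 393 to 469 CPM in control libraries. Of the Kupffer cell and macrophage markers, 10 of 11 were negative, with a summed level of 310 to 370 against 323 to 417 CPM. For stellate and pericyte markers 7 of 9 were negative, with 285 to 386 against 351 to 360 CPM. Each of these markers had over 3 counts in at least 1 library. The negative sign was not particular to these 3 lists, since 7 of 9 hepatocyte markers were also negative. Among the markers tested, so were 5 of 8 for B and plasma cells, 3 of 5 for cholangiocytes and 2 of 2 for T and NK cells. For adipocytes it was 1 of 3. Median log2 fold changes were -0.33 for endothelial, -0.15 for Kupffer cell and macrophage, -0.10 for stellate and pericyte and -0.08 for hepatocyte markers. Groups lay apart for 0 of 11 Kupffer cell and macrophage markers. They did so for 2 of 9 stellate and pericyte markers (1 higher, 1 lower) and 1 of 9 hepatocyte markers (higher). Differences between the lists were not tested. The part of any of these cell types in the Ckap4 value was not tested.

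**Figure D2:**
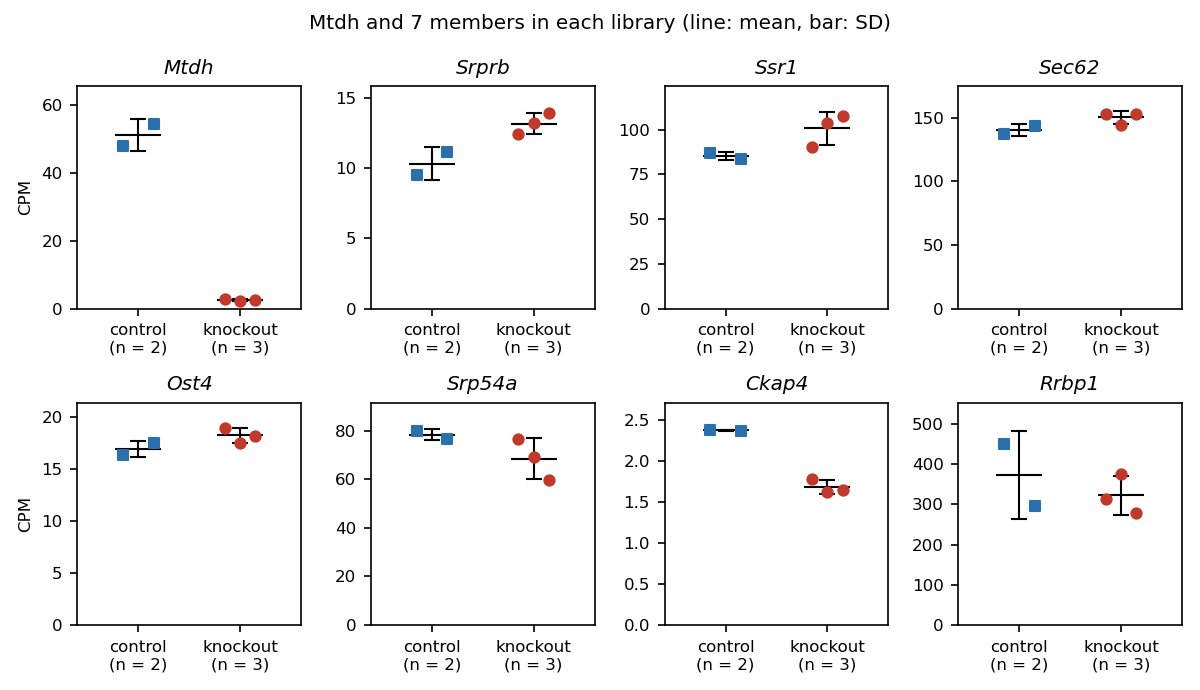
The y axis (from 0) gives CPM of Mtdh, the 6 members whose groups did not overlap and Rrbp1 in each distinct library, with the mean as a line and the SD as a bar, control (n = 2) left and knockout (n = 3) right. Mtdh falls to near 0 in knockout livers, while the members shift by little, and the Rrbp1 controls differ from each other by more than the groups do.

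The promoters of the 4 members with the smallest p are shown, of which 2 had higher and 2 lower values in knockout livers. Each line is the 250 bases before the RefSeq start site on GRCm38.p6, 5′ to 3′ on the gene's strand. Capitals mark CCACG or CCAAT on either strand (read as CGTGG or ATTGG on the other), which are the end pieces of the ER stress element, a binding site of unfolded protein response factors. Srprb is chr9:103202066-103202315 (minus strand), Ssr1 chr13:37994209-37994458 (minus), Ckap4 chr10:84533889-84534138 (minus) and Srp54a chr12:55080246-55080495 (plus), whose gene model in the count table starts downstream, at 55089202.
Srprb: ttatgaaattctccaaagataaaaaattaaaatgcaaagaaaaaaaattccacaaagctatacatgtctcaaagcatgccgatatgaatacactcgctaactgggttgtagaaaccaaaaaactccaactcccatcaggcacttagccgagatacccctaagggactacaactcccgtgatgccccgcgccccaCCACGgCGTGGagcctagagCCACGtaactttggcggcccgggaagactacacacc
Ssr1: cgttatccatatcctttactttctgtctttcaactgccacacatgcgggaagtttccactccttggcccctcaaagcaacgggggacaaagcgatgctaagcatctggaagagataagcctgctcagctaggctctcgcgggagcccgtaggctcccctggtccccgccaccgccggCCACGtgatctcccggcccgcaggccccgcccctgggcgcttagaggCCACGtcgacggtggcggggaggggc
Ckap4: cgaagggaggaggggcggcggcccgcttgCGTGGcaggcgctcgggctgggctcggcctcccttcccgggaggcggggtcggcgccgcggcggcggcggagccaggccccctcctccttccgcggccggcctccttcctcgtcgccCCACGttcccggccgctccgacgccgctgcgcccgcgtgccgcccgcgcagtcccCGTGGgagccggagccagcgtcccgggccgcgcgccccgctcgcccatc
Srp54a: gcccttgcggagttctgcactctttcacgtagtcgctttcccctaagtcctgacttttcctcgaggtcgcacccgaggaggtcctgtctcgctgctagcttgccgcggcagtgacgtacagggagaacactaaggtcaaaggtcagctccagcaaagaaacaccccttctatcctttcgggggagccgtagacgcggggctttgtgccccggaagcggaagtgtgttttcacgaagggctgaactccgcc

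CCACG occurred 3 times in the window of Srprb, 2 times in that of Ssr1 and 3 times in that of Ckap4, and neither motif occurred in that of Srp54a. The higher and the lower pair are thus not divided by it. Over the 29 members with a RefSeq promoter entry, 16 (55.2%) held CCACG, against 28.2% of 27025 promoters of all genes and 40.3% of the 10811 that belong to genes tested here. CCAAT was held by 13 (44.8%), against 34.5% and 36.3%. The full ER stress element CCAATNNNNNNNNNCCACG, the ER stress element II (ATTGG, any base, CCACG) and the unfolded protein response element TGACGTGG, each searched on both strands, occurred in 0 of the 29. Among all promoters they occurred in 0.122%, 0.0333% and 0.503%. The letters of element II overlap a CCAAT and a CCACG match, as do those of the full element. Members without an entry were Sec11c, Sec61a1, Spcs3, Srp19, Srp68, Ssr2 and Tram1.

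Between genes, levels were compared only per length, as TPM (counts divided by exon length and scaled to the same sum in every library). The exon length is a sum over the exons of the gene model, so ratios between genes depend on these models. The mean TPM over the 5 distinct libraries ran from 1.36 for Ckap4 to 134 for Ssr3. Ssr3 had 105 to 153 TPM and Srpr 106 to 129 TPM, so the 2 highest members overlapped over libraries. Srp54a followed with 72.5 to 118 TPM, a value that carries the doubt about its copies and its short gene model. Within TRAP, Ssr3 was 4.96 to 7.84 times as abundant as Ssr1 in each library. Tram1 exceeded Tram2 by 10.3 to 21.9 times, and the extremes of that ratio were the 2 control libraries.

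Alternative subunits differed in balance. Per length, Stt3b exceeded Stt3a in every library, with Stt3a at 0.63 to 0.73 of its level. This order rests on the summed exon lengths, 8948 bases for Stt3a and 4195 for Stt3b. In CPM Stt3a was the higher, at 86.7 to 116 against 64.4 to 80.5 CPM. Sec11a and Sec11c were of like abundance, at a ratio of 0.80 to 1.32, with both extremes again in the control group. Sec61a1 had 14.4 to 19.5 times the level of Sec61a2, its paralogue. Magt1 had 1.64 to 2.32 times the level of Tusc3, the alternative oxidoreductase subunit. The knockout ratios for Magt1 to Tusc3 were 1.64, 2.06 and 2.32, and the control ratios 1.64 and 1.68.

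**Figure D3:**
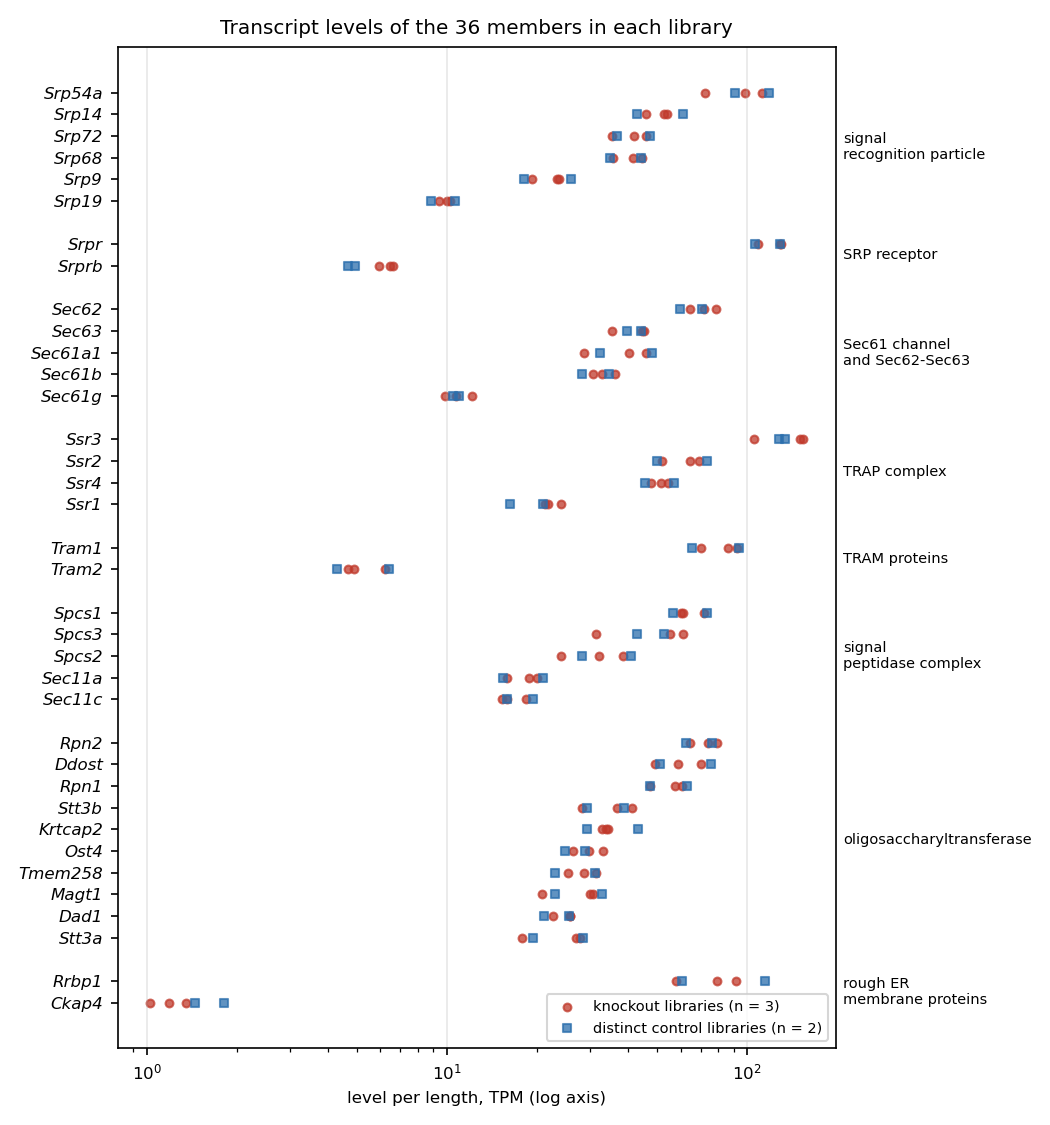
TPM (x axis, log scale) of each member in the 3 knockout (circles) and 2 distinct control libraries (squares), grouped by complex on the y axis. Ckap4 (mean 1.36 TPM), Tram2 (5.30) and Srprb (5.73) are the lowest, and Srpr (120) and Ssr3 (134) the highest.

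Control replicates 1 and 3 differed from each other by more than the groups did for 24 of 36 members (66.7%), the same share as over all genes (66.7%). A ratio of 2 single libraries varies more than a difference of group means, so most genes would meet this without any group effect. The median absolute log2 ratio between control replicates 1 and 3 was 0.13 for the members and 0.23 for all genes. The members farthest apart were these: Rrbp1 was 1.53 times as high in replicate 1 as in replicate 3, while Tram2 was at 0.54 and Sec11c at 0.66 of its level. For 17 members the highest of the 5 libraries was under 1.2 times the lowest. Over all genes with at least 10 counts in a pair of libraries, the control pair also differed most. Its chi-square over degrees of freedom was 227, against 44.5 to 157 for the other pairs. Knockout replicate 3 lay closer to control replicate 3 (49.4) than to knockout replicates 1 (86.3) and 2 (106). It was farthest from control replicate 1 (157). Distances between libraries thus did not follow the groups, and the cause was not tested.

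**Figure D4:**
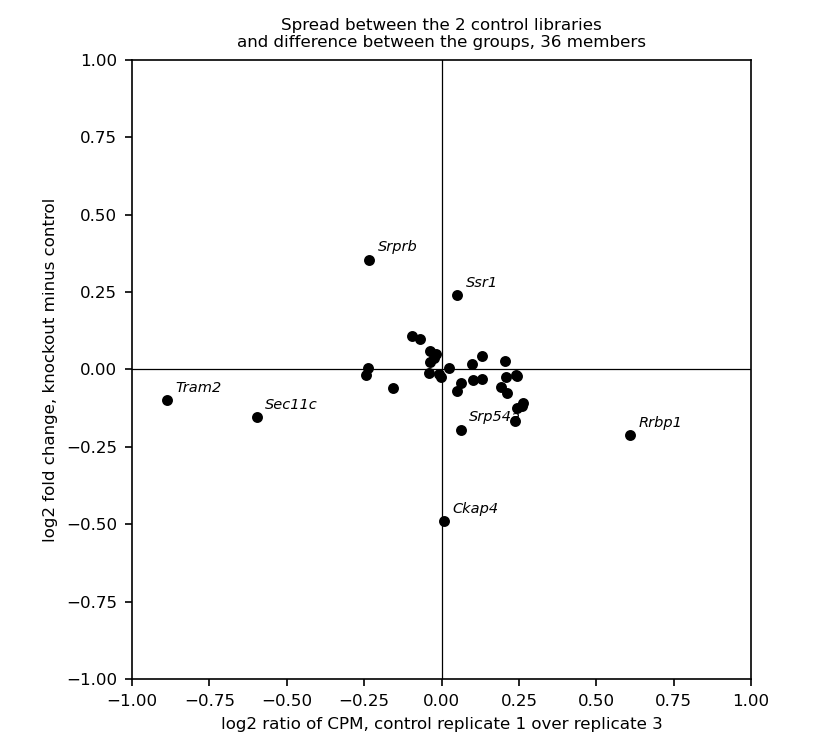
Each point is a member, with the log2 ratio of CPM between control replicates 1 and 3 on the x axis and the log2 fold change between groups on the y axis, on equal scales. Rrbp1, Tram2 and Sec11c lie far out along x, while Srprb, Ssr1 and Ckap4 lie farther out along y than along x.

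The wider pathway was read from 5 lists of 102 other genes, of which 100 were matched to the table by symbol and all 100 were tested. None passed the edgeR test in either direction. At an unadjusted p under 0.05 there were 0 by edgeR, 1 by DESeq2 and 1 by limma-voom, in both cases Manf. Among all 16441 genes tested there were 564, 498 and 541 by these methods. The 2 symbols not matched were Hm13 and Srp54b, and a gene whose symbol was not matched may still have a row under another name.

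Lumenal chaperones and disulfide formation had the lowest median of the 5 lists, -0.15, with 12 of 18 genes negative. Their summed level was 3874, 4246 and 3210 CPM in knockout and 4005 and 3835 CPM in control libraries, so the groups overlapped. Manf, a stress-induced ER protein that is also secreted, had 32.5, 51.0 and 28.4 CPM in knockout and 64.1 and 50.3 CPM in control libraries, a log2 fold change of -0.62 (SE 0.26). Knockout replicate 2 lay among the controls. Creld2, another ER stress-induced protein, had 12.8, 21.5 and 11.3 CPM against 25.1 and 19.0 CPM, with the same library high, and its log2 fold change was -0.54 (SE 0.29). Dnajc1, a membrane cochaperone of BiP that faces the translocon, had 31.1, 29.2 and 30.2 CPM against 36.7 and 33.4 CPM, and its groups lay apart at a log2 fold change of -0.22 (SE 0.10).

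Synthesis of the lipid-linked sugar had the highest median, 0.07, with 18 of 29 genes positive. Gnpnat1, an enzyme of the supply of UDP-N-acetylglucosamine, stood at a log2 fold change of -0.26 (SE 0.16). Alg8, a glucosyltransferase of the sugar tree, had 0.21 (SE 0.15), and Srd5a3, which makes the dolichol carrier, 0.21 (SE 0.16). Among the other insertion and translocon factors 19 of 26 genes were positive, with a median of 0.04. Nomo1, part of a translocon complex for membrane proteins, had 39.4, 41.8 and 42.5 CPM in knockout and 30.9 and 37.3 CPM in control libraries, which lay apart at 0.27 (SE 0.12). Asna1, the ATPase that delivers tail-anchored proteins, had 0.15 (SE 0.10).

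In glycan trimming and glycoprotein folding 8 of 12 genes were negative, with a median of -0.04. Uggt2, a paralogue of the folding sensor Uggt1, had 2.34, 2.08 and 2.41 CPM in knockout and 2.83 and 3.59 CPM in control libraries, a log2 fold change of -0.49 (SE 0.21). Uggt1 itself had -0.15 (SE 0.18), and Pdia3, the disulfide isomerase that works with calnexin and calreticulin, -0.16 (SE 0.16). In glycoprotein degradation 8 of 15 genes were negative around a median of 0.00, with 0.18 (SE 0.12) for Derl2, -0.16 (SE 0.13) for Edem1 and -0.17 (SE 0.14) for Syvn1, the ubiquitin ligase of the pathway. Over all 5 lists the groups lay apart for 15 of 100 genes, 10 higher and 5 lower, beside 16.9% of all genes.

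**Figure D5:**
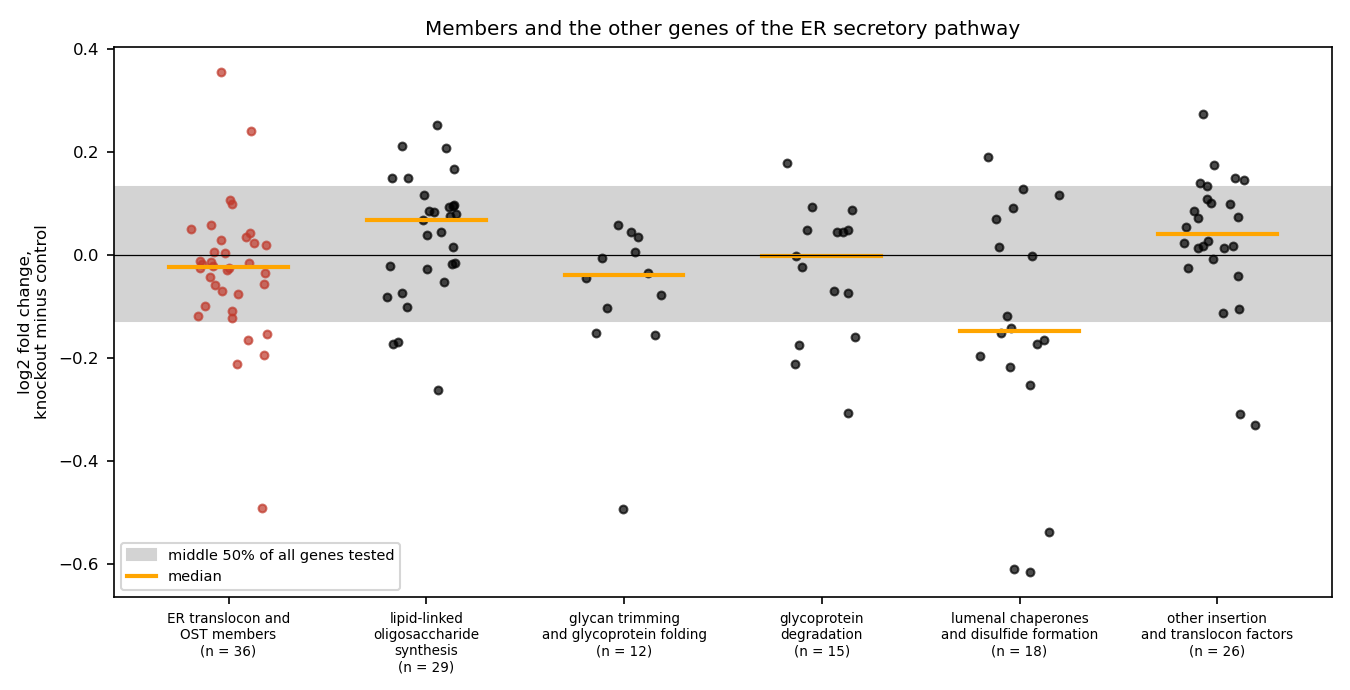
Log2 fold change (y axis, knockout minus control) of each gene in the member list and in the 5 pathway lists, with the median of each list as a bar and the range between the quartiles of all genes tested (-0.13 to 0.13) as a band. The medians of 5 of the 6 lists lie within the band, and that of the lumenal chaperones (-0.15) just below it.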

How the data were processed

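Whole-liver RNA was sequenced from 3 mice per group. The authors deposited whole-number read counts per gene with the summed exon length, not normalized. The build mm10/GRCm38 and the tools Subread 1.4.6-p4, featureCounts 1.4.6-p4, Trimmomatic 0.33 and FastQC are listed in the submitters' processing notes, without their roles. The sources used here do not give the annotation release, the strand setting or the treatment of reads with several matches. Symbols came from GENCODE vM21.

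The members and lists were chosen with earlier results of these data known. Control replicate 2, identical to replicate 1, was left out. After edgeR's filterByExpr and TMM scaling, 3 knockout and 2 control libraries were compared by edgeR's quasi-likelihood F test (edgeR 4.0.16, R 4.3.3), two-sided, with Benjamini-Hochberg adjustment over 16441 genes and a threshold of 0.05. Alternatives were DESeq2 1.42.0, limma-voom (limma 3.58.1), 3 other scalings, no filter, all 6 columns, a replicate block and each library left out. SEs derive from the F statistic. A count of 3 is 0.0891 to 0.101 CPM. This floor covers counting error only, whereas the SEs and intervals also include the variation between libraries that the fit estimated.

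Values per library are given for the 3 members of each complex with the smallest p, the 3 with the highest TPM and, outside this rule and chosen with its values known, Spcs3. The pathway genes named are the 3 of each list with the smallest p, with values per library for some and a fold change and SE for each. Promoters came from RefSeq tables. Proteins were not compared here. Replicate numbers were not taken to pair mice, since the labels call them biological replicates and name no shared litter or day.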

Additional observations from a re-analysis of the deposited data

How the results depend on the processing

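By the count of calls at an adjusted p under 0.05, 0 members and 0 pathway genes passed under each of the 13 alternative settings. DESeq2 called 6 genes higher and 13 lower, the fit without a filter called 3 lower, and the libraries left out in turn gave 1 to 6 lower (6 without control replicate 3). With 1 library left out, the members with a negative fold change numbered 15 to 24, and the median of all members was -0.07 to 0.02. Upper-quartile scaling gave 27 negative members and library totals 20, against 23 in the fit reported. A fit that leaves 1 control assumes that it varies like the knockout libraries. With the replicate block, 0 genes were called lower, and Mtdh had -4.28 with an adjusted edgeR p of 0.0517. Deviations of same-numbered libraries correlated at 0.06 (replicate 1) and 0.15 (replicate 3). Those of knockout replicate 2 and control replicate 1 correlated at 0.11. With 2 controls, the deviations of one are the reverse of the other's, so these values cannot decide whether mice were paired.

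All 36 members were fitted in every setting, but signs were followed only for the 22 named by smallest p or highest TPM. That choice can favour stable signs, so their share does not stand for all members. Of these 22, 10 kept their sign throughout (Ckap4, Ddost, Ost4, Sec61b, Sec62, Spcs2, Srp54a, Srp72, Srprb and Ssr1). Among them, Ddost was at -3.86e-05 without control replicate 1 and thus has no direction there. The rest of the 22 crossed 0, and the cause was not tested. With 1 library left out, log2 fold changes ran from -0.24 to 0.0111 for Krtcap2, -0.48 to 0.12 for Rrbp1, -0.23 to 0.0243 for Sec61a1, -0.43 to 0.18 for Sec11c, -0.0810 to 0.0174 for Spcs1, -0.15 to 0.0376 for Srp14, -0.00023 to 0.0450 for Srpr, -0.48 to 0.41 for Tram2, -0.0676 to 0.13 for Tram1, -0.14 to 0.10 for Ssr2, -0.17 to 0.0521 for Ssr4 and -0.12 to 0.13 for Ssr3. With the replicate block they were 0.0184 for Spcs1, -0.0239 for Tram1, 0.0415 for Ssr4 and -0.0477 for Ssr3. Upper-quartile scaling gave -0.00063 for Srpr and -0.0177 for Ssr3, and all 6 columns gave 0.0534 for Tram2 and -0.0037 for Tram1.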

Other observations

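Around Srprb on chromosome 9, other genes were looked at after its value was seen. Within 1 Mb on either side 15 genes were tested, and Srprb was the 1 gene with an unadjusted edgeR p under 0.05. Within 3 Mb there were 5 of 39 (12.8%, 3 higher and 2 lower), beside 3.43% of all genes. Srprb, around which the window was set, is 1 of the 5 and of the 3 higher ones. Its place was fixed in advance, so the 2 shares are not alike and no regional excess can be read from them.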
